A study of Homo sapiens with 32 samples.

Results

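The peaks described here lie in pseudogenes and in no other long gene. A peak was taken if it overlapped, by at least 1 base and on either strand, the body of a RefSeq gene of the biotype pseudogene or transcribed pseudogene (build GRCh38.p14) and overlapped no protein-coding or long non-coding RNA (lncRNA) gene body. DPY19L2P2 was left out, and chromosomes 1 to 22 and X were used. The rule took 6940 of the 338017 peaks of 12 lists, or 2.05%. A further 6925 peaks overlapped a pseudogene and also a protein-coding or lncRNA gene, and were not taken. The 6940 peaks lay in 795 of 16458 annotated pseudogenes. Of them, 737 lay in more than 1 pseudogene, because some annotated pseudogenes overlap each other, and 5318 lay in transcribed pseudogenes.

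N6-methyladenosine (m6A) was mapped on RNA bound to chromatin by MeRIP-seq, the sequencing of RNA fragments pulled down with an m6A antibody. The established cell lines were OVCAR8 and SKOV3, both ovarian cancer, and LOVO and RKO, both colorectal cancer, and in each a knockdown of METTL3 labelled shMETTL3 was set against a control. The knockdown samples carry the genotype METTL3 knockdown and the controls the genotype WT, and the labels give no further allele, agent or time. Nothing in the labels says whether replicates came from separate cultures, so any p-value measures only the spread between lists. OVCAR8 and SKOV3 have 2 peak lists in each group. LOVO and RKO have a single list in each, and so no replicate check. A list held between 15484 and 37398 peaks.

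Pseudogenes are copies of genes that no longer encode the parent's product. Processed copies come from messenger RNA that was reverse-transcribed and inserted back into the genome, and are short and without introns, whereas duplicated copies keep the exons and introns of the parent. METTL3 is the catalytic subunit of the main m6A methyltransferase of nuclear RNA, which acts on nascent transcripts. A copy that is nearly identical to its parent or to another copy cannot always be told from it by a sequencing read, and an aligner must then drop the read, place it at random or place it at several positions. The sources used here do not say which of these was done.

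The reference tables used here hold sequence only for windows of 300 bases around the starts of protein-coding and lncRNA genes, so sequence can be shown only where a peak in a pseudogene ran into such a window next to it. The first pair are the windows reached in 9 and in 7 lists. Neither of these windows shares a 100-base run with any other window of the table. The next 3 stretches lie in windows that do share runs of 100 bases with another gene's window, to very different extents. Sharing was counted over the whole window, so a printed stretch need not hold the shared runs. Capitals mark GGAC, a common core of the m6A consensus, on the strand of the peak. The sequences are RefSeq's, GRCh38.p14, written 5′ to 3′ on that strand.
LOC112268321 peaks at the TRAPPC12-AS1 window, chr2:3483352-3483503, plus strand: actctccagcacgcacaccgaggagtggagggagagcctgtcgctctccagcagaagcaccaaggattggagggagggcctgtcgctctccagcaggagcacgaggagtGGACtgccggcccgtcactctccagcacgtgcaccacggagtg
HTATSF1P2 peaks at the LOC101927759 window, chr6:3023813-3023908, minus strand: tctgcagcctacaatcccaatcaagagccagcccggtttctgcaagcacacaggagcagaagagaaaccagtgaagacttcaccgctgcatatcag
PARGP1 peaks at the TIMM23 window, chr10:45972239-45972433, minus strand: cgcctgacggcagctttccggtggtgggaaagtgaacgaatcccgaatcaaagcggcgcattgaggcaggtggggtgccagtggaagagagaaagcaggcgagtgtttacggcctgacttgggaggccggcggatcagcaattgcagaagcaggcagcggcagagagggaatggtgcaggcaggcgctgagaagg
ZBTB45P1 peaks at the LINC01123 window, chr2:109986730-109986924, plus strand: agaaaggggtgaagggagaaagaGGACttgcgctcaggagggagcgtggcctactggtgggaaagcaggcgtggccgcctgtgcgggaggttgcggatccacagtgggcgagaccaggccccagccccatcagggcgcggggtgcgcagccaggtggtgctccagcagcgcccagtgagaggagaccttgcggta
PDE4DIPP2 peaks at the LOC107985524 window, chr1:120558435-120558585, minus strand: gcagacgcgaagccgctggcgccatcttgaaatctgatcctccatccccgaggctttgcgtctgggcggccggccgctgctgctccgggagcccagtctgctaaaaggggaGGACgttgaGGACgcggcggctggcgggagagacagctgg
GGAC was found once in the 152 bases at LOC112268321, and 42.8% of all windows cut to 152 bases hold it on a given strand. It was found 2 times in the 151 bases at PDE4DIPP2 (42.5% of windows of that length hold it) and once in the 195 bases at ZBTB45P1 (50.7%). It was not found in the 96 bases at HTATSF1P2 (29.9%) or the 195 bases at PARGP1. Of the TIMM23 window, 0.995% of the 100-base runs were also in the window of TIMM23B-AGAP6. For the LINC01123 window 94.5% of the runs were also in another window, that of LINC01106 most often, and for the LOC107985524 window the figure was 56.7%, with PDE4DIP, the parent gene of PDE4DIPP2, as the most frequent partner.

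Some lists stand apart from their labels, and this touches each comparison below. In the libraries labelled OVCAR8 shMETTL3, 96.3% of the pseudogene peaks were found in SKOV3 control lists and 55.6% in OVCAR8 control lists. Of all their peaks, 95.9% and 69.3% were. In those labelled SKOV3 shMETTL3, 79.7% were found in OVCAR8 control lists and 66.2% in SKOV3 control lists, against 81.9% and 56.5% of all their peaks. Of the pseudogene peaks of the library labelled RKO shMETTL3, 38.2% were found in the RKO control list, against 45.1% of all its peaks. For LOVO shMETTL3, 75.6% were found in the LOVO control list, against 73.1% of all its peaks. Groups were kept as labelled, and peak number, share, loss and gain in the ovarian lines are also given against the lists of the other line. Among lineage markers, WT1, SOX17 and EMX2, which mark ovarian and Müllerian epithelium, had no peak in any of the 12 lists, and PAX8, MUC16 and MECOM had none in the lists labelled OVCAR8 shMETTL3. MUC16 and MECOM also had none in SKOV3 control. MSLN had a peak in all 8 ovarian lists and in none of the 4 colorectal lists, whereas MECOM had a peak in all 4 colorectal lists and PAX8 in 2, the LOVO and RKO controls. CDX2, CDH17, GPA33, LGR5 and HNF4A, markers of intestinal epithelium, had peaks in both LOVO lists. CDX1 and KRT20 had peaks in LOVO control only, VIL1 in LOVO shMETTL3 only, and ASCL2 in no list. In RKO shMETTL3 none of the 9 colorectal markers had a peak, and in RKO control CDX2 alone did.

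Long, transcribed pseudogenes carried most of the peaks. Of 1013 transcribed pseudogenes with bases outside every protein-coding and lncRNA body, 38% had a peak in at least 1 list, against 4.77% of 8596 genes annotated simply as pseudogene. The share with a peak was 2.42% for bodies under 1 kb and 49.2% for bodies over 30 kb. Density differed less than these shares: transcribed pseudogenes held 20.8 peaks per megabase of such free sequence and list, the other biotype 9.71. By length, density was 12.45 for bodies under 1 kb, 19.97 for 10 to 30 kb and 14.17 over 30 kb. Among transcribed pseudogenes density fell with length, from 64.81 under 1 kb to 17.03 over 30 kb. In the other biotype density was 11.44 under 1 kb, 13.99 at 1 to 3 kb and 5.06 over 30 kb. The higher share of long bodies with a peak was thus not matched by a higher density in the longest bodies. Bodies with a peak had a median length of 6639 bases, against 716 bases over all annotated pseudogenes.

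**Figure D1:**
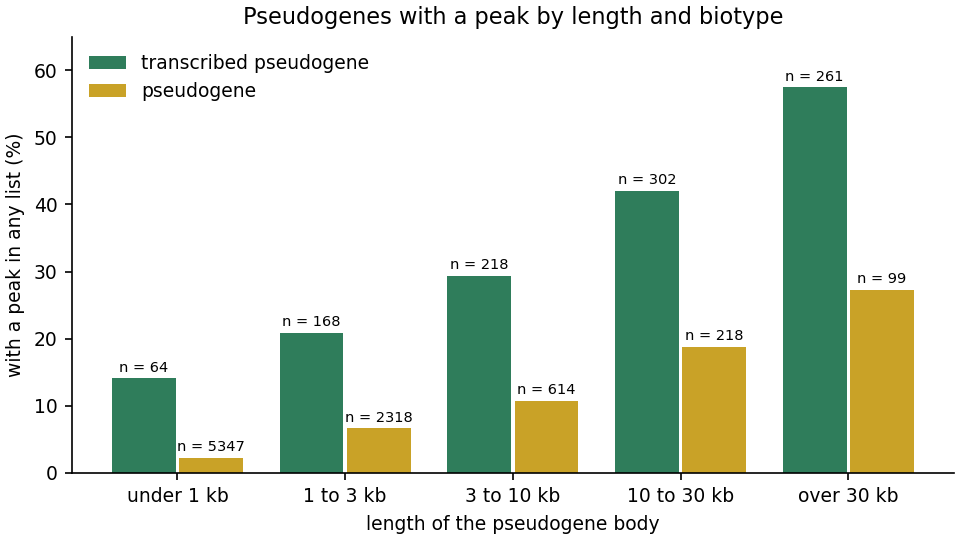
Percent of pseudogenes with a peak in any of the 12 lists, by length of the body (horizontal axis) and biotype (transcribed pseudogene left, pseudogene right). Numbers over the bars are the pseudogenes with free bases in each class. In every length class the transcribed biotype is higher, with 14.1% against 2.28% under 1 kb and 57.5% against 27.3% over 30 kb.

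Most families of short pseudogenes were largely without peaks. Counting only pseudogenes with free bases, 48 of 1019 ribosomal protein copies had a peak, as did 9 of 352 olfactory receptor copies and 1 of 323 copies of mitochondrial genes, MTRNR2L12. None of the 34 GAPDH copies had one, and 10 of 107 keratin copies did (9.35%). Families of longer, duplicated copies had peaks more often. Zinc finger pseudogenes had a peak in 21 of 66 cases, the copies of the chromosome 7 duplication (among them POM121B, STAG3L3, NSUN5P1 and PMS2P5) in 19 of 55, and copies of other duplicated blocks (among them PDPK2P, GOLGA2P10 and GUSBP11) in 79 of 198. Over all 9609 pseudogenes with free bases the share was 8.27%. Ribosomal protein copies with a peak numbered 3 to 8 in an ovarian list and 14 to 23 in a colorectal list. Ovarian lists were deposited per library and colorectal lists per group. Tissue and kind of list therefore cannot be told apart in any comparison of ovarian with colorectal lists. Here and below, in this bulk assay, less RNA per cell and fewer methylated molecules cannot be told apart, and no input level was used.

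The pseudogenes with most peaks, by the mean over lines, were LOC100288637, ZNF767P and ZNF37BP, all transcribed and each with peaks in all 12 lists. LOC100288637 (chromosome 15, 30646115 to 30773009) had 7 and 8 peaks in OVCAR8 shMETTL3 and 17 and 19 in OVCAR8 control, 14 and 13 in SKOV3 shMETTL3 and 8 and 9 in SKOV3 control, 8 in LOVO shMETTL3 and 12 in LOVO control, and 5 in RKO shMETTL3 and 11 in RKO control. Its OVCAR8 groups did not overlap, nor did its SKOV3 groups, and they differed in opposite directions. ZNF767P and ZNF37BP, relics of Krüppel-type zinc finger genes, were more even. ZNF767P (chromosome 7) had 8 to 14 peaks in each of the 12 lists, and ZNF37BP (chromosome 10) 7 to 14. Their peaks were all on 1 strand.

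LOC652276 and PDPK2P overlap each other on chromosome 16 and so share peaks. PDPK2P is a copy of the gene of the kinase PDK1. LOC652276 had between 12 and 17 peaks in each of the 8 ovarian lists, but 1 in LOVO shMETTL3 and 2 in LOVO control, and 5 in RKO shMETTL3 and 7 in RKO control. PDPK2P had 12 to 16 peaks in each ovarian list, none in LOVO shMETTL3, 1 in LOVO control, and 4 in each RKO list. These were the pseudogenes with the clearest gap between the ovarian and the colorectal lists among the 10 with most peaks, an observation made after their values were seen. Whether the gap goes with tissue or with the kind of list cannot be told apart. The other 5 of the 10 were FRG1HP, DTX2P1, DUXAP9, DUXAP8 and TEKT4P2. DTX2P1, a copy of the ubiquitin ligase gene DTX2, had 5 and 4 peaks in OVCAR8 shMETTL3, against 6 and 6 in OVCAR8 control, and 8 and 6 in SKOV3 shMETTL3, against 12 and 14 in SKOV3 control. It had 10 in LOVO shMETTL3 and 9 in LOVO control, and 2 in RKO shMETTL3 and 4 in RKO control.

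**Figure D2:**
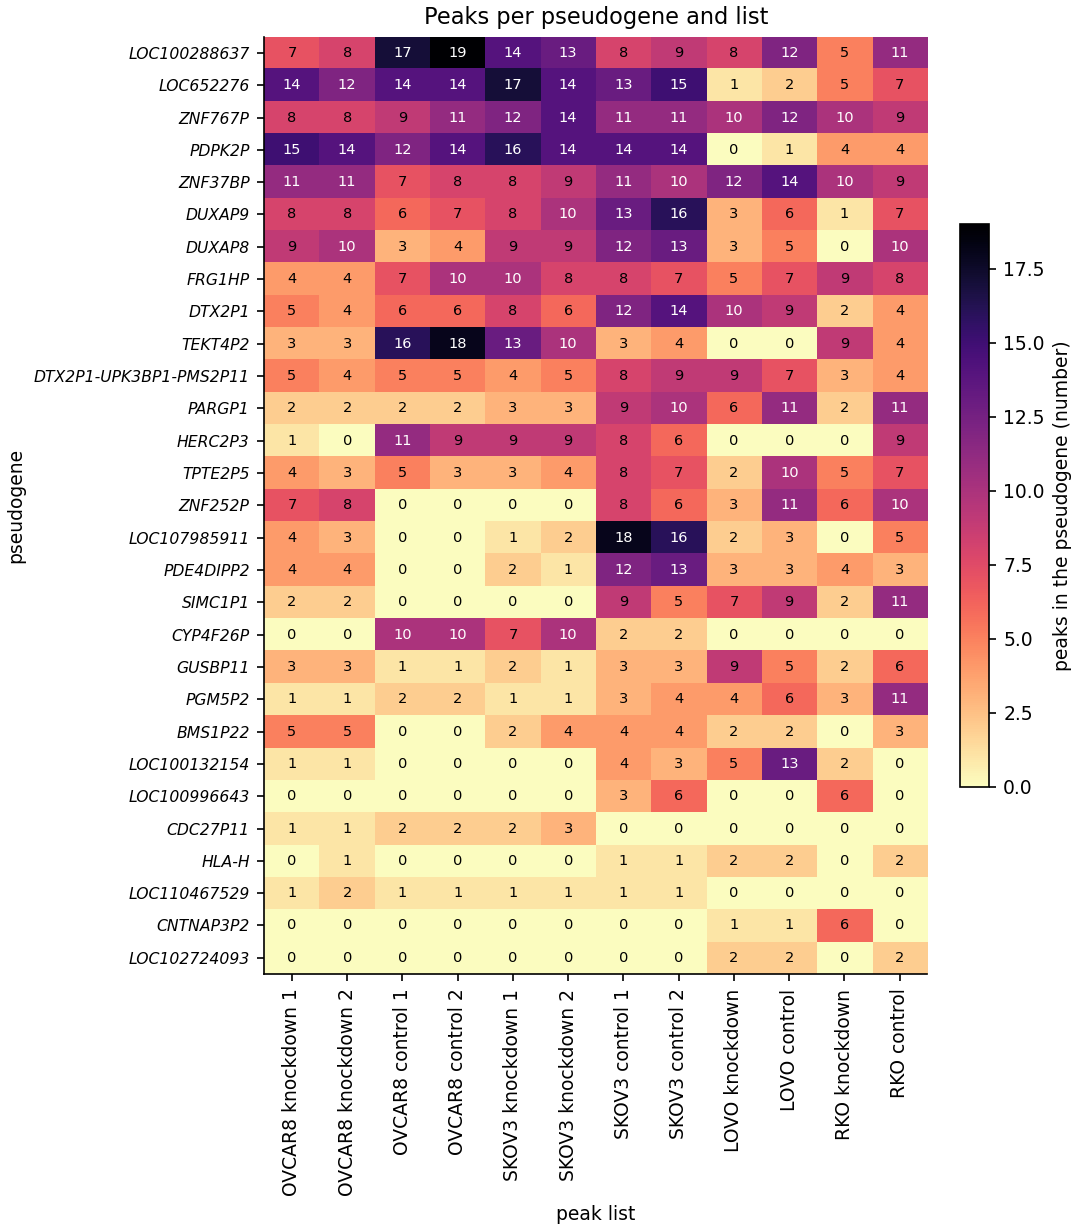
Number of peaks (colour and printed value) in each of 29 named pseudogenes (down the page, most peaks at the top) in each of the 12 lists (across, knockdown left of control within a line). LOC652276 and PDPK2P are high in the 8 ovarian lists and low in LOVO. ZNF252P has 7 and 8 peaks in OVCAR8 knockdown and none in OVCAR8 control, and none in SKOV3 knockdown and 8 and 6 in SKOV3 control.

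The strongest pseudogene peak of all 4 ovarian knockdown lists lay in a remnant of a ribosomal RNA unit on the short arm of chromosome 21. A set of neighbours there, RNA18SP5 (8253842 to 8255704), RNA5-8SP10 (8256780 to 8256936) and LOC110467529 (8258134 to 8260930, with the RefSeq synonym RNA28SP), are named as copies of 18S, 5.8S and 28S ribosomal RNA. LOC110467529 had a plus-strand peak of 2989 to 3175 bases, longer than the annotated body, in all 8 ovarian lists. The authors' fold enrichment there was 35.1 and 31.0 in OVCAR8 shMETTL3, against 22.3 and 24.4 in OVCAR8 control, and 31.3 and 27.5 in SKOV3 shMETTL3, against 24.7 and 23.8 in SKOV3 control. In all 4 knockdown lists it was higher than in every control list, so the groups did not overlap in either line. Folds of separately called lists were set side by side without a test. LOC110467529 was named because its peak was the strongest of these knockdown lists. RNA18SP5 had a peak at a fold of 9.0 to 16.2 and RNA5-8SP10 at 8.59 to 20.3 in all 8 ovarian lists. Their groups were not apart in both lines. For RNA18SP5 both knockdown folds were above both control folds in OVCAR8. In SKOV3 they overlapped, at 9.6 and 9.0 in SKOV3 shMETTL3, against 10.3 and 9.5 in SKOV3 control. For RNA5-8SP10 both knockdown folds were above both control folds in SKOV3. In OVCAR8 they overlapped, at 19.21 and 18.64 in OVCAR8 shMETTL3, against 20.31 and 17.97 in OVCAR8 control. None of the 3 copies had a peak in LOVO or RKO. The same held for the 12 annotated ribosomal RNA genes of that chromosome, all with a peak in every ovarian list and none with a peak in a LOVO or RKO list. The ribosomal RNA genes are repeated many times in the genome in nearly identical copies, and the labels' protocol names nonribosomal RNA or mRNA as the starting material. Which ribosomal copy the reads came from was not tested.

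Copies of CDC27, which encodes a subunit of the anaphase-promoting complex, lie between and beside those ribosomal genes. CDC27P11 held the strongest pseudogene peak of both OVCAR8 control lists, at a fold of 26.1 and 25.8 and a width of 3848 and 3916 bases. In OVCAR8 shMETTL3 its strongest peak had a fold of 4.34 and 3.52 and a width of 165 and 268 bases. It had 2 and 3 peaks in SKOV3 shMETTL3 and none in SKOV3 control, LOVO or RKO. CDC27P10 had 3 and 4 peaks in OVCAR8 shMETTL3, against 11 and 11 in OVCAR8 control, and 6 and 7 in SKOV3 shMETTL3, against 2 and 3 in SKOV3 control. Peaks within 100 kb of the ribosomal genes that count as pseudogene peaks numbered 6 to 21 in an ovarian list and 1 or 2 in a LOVO or RKO list. Without these pseudogenes, an alternative chosen after the data were seen, the change in peak number given below was -0.27 on the log2 scale, with an exact p of 0.0278.

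Outside that locus, the strongest pseudogene peak of both SKOV3 control lists was in LOC107985911 on chromosome 2, at a fold of 30.7 and 28.4. LOC107985911 had 1 and 2 peaks in SKOV3 shMETTL3, against 18 and 16 in SKOV3 control, and 4 and 3 in OVCAR8 shMETTL3, against none in either OVCAR8 control list. In LOVO the top peak was in LOC102724093 on chromosome 15, with a score of 33.9 in LOVO shMETTL3 and 29.5 in LOVO control, a unit that no header explains and that is therefore only compared within a list. The top peak of RKO shMETTL3 overlapped the edge of CNTNAP3P2, a copy of a contactin-associated protein gene, with 6 peaks in RKO shMETTL3 and none in RKO control. That peak ran from 67059016 to 67059629, and the annotated body begins at 67059460. The top peak of RKO control overlapped the edge of HLA-H, a class I histocompatibility pseudogene, with none in RKO shMETTL3 and 2 in RKO control. It ran from 29887110 to 29887977, and the body begins at 29887573. In strength, pseudogene peaks were otherwise like the rest of their lists: their median rank was between percentiles 48.0 and 53.2 of the list. Peaks were ranked by −log10 p in the ovarian lists and by the score in the colorectal lists.

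A small set of regions was found everywhere. When overlapping same-strand peaks were merged over the 12 lists, 70 of 1877 pseudogene regions (3.73%) had a peak in all 12, against 5.36% of all 87085 regions, and 36.5% were in a single list, against 37.8%. The 70 regions lay in 67 pseudogenes. The region with the highest mean rank was in EP400P1 (chromosome 12, 132104223 to 132105366, plus strand), a copy of the gene of the chromatin remodeller p400, whose peaks lay between percentiles 83.1 and 99.7 of the lists. PMS2CL, a partial copy of the mismatch repair gene PMS2, had a region (chromosome 7, 6736952 to 6737909, plus strand) between percentiles 83.0 and 98.4. RNF216P1, a copy of a ubiquitin ligase gene, had a region (chromosome 7, 4996771 to 4998040, plus strand) between percentiles 64.0 and 97.2. These 3 were named after their values were seen. HERC2P9 had exactly 1 peak in each of the 12 lists.

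Fewer peaks lay in pseudogenes in the knockdown lists of OVCAR8, SKOV3 and LOVO than in their controls, and the knockdown lists of all 4 lines were also shorter altogether. The number was 402 and 408 in OVCAR8 shMETTL3 and 470 and 493 in OVCAR8 control. It was 497 and 495 in SKOV3 shMETTL3 and 757 and 757 in SKOV3 control. LOVO shMETTL3 had 554 and LOVO control 677, and RKO shMETTL3 had 726 and RKO control 704. The knockdown and control lists did not overlap in OVCAR8 or SKOV3, and RKO alone had more in the knockdown list. Averaged over the 4 lines the change was -0.28 on the log2(number + 1) scale, or 0.826 times the control (two-sided exact permutation test within lines, 144 arrangements, p = 0.0278, where the smallest possible is 0.0139). Adjusted by Benjamini-Hochberg over the 3 permutation tests made, this exact p was 0.0833, so the change did not hold after correction. With an equal number of strongest peaks taken from every list the change was 0.019, with an exact p of 0.889. The exact p was 0.0556 without the LOVO lists and 0.0857 with the ovarian lists permuted across lines.

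As a share of the list, pseudogene peaks made up 2.60% and 2.59% in OVCAR8 shMETTL3 and 1.66% and 1.71% in OVCAR8 control. The order was the other way in SKOV3, with 1.90% and 1.84% in SKOV3 shMETTL3 and 2.62% and 2.60% in SKOV3 control. The share was 1.78% in LOVO shMETTL3 and 1.87% in LOVO control, and 2.13% in RKO shMETTL3 and 1.88% in RKO control. The 2 ovarian lines differed in opposite directions, and over the 4 lines the mean difference was 0.083 percentage points (exact permutation p = 0.653, adjusted 0.653). Set against the control of the other ovarian line, the libraries labelled OVCAR8 shMETTL3 held 46.5% fewer pseudogene peaks than SKOV3 control, with 46.2% fewer peaks in all, and a mean share of 2.59% against 2.61%. The libraries labelled SKOV3 shMETTL3 held 3.01% more than OVCAR8 control, with 6.96% fewer peaks in all, and a mean share of 1.87% against 1.69%. The mean change over the 4 lines is the same for either pairing by construction.

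**Figure D3:**
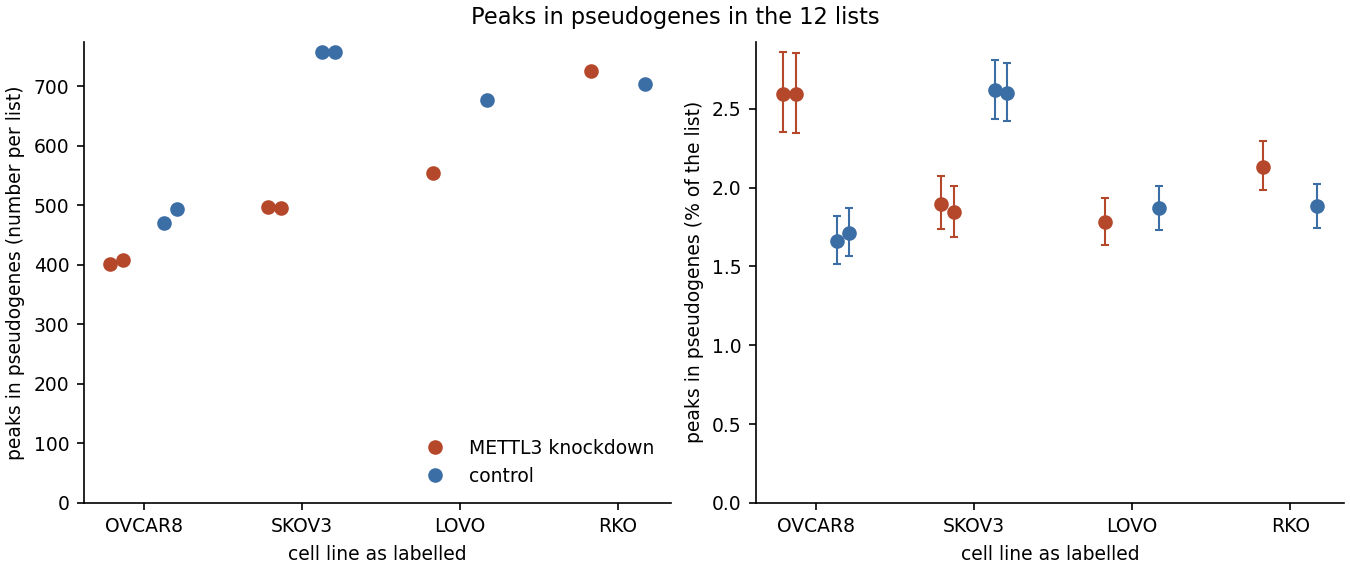
Number of peaks in pseudogenes (left panel) and their percent of the list (right panel, bars are exact 95% binomial intervals, which cover counting error only) for each list, METTL3 knockdown left of control within a line. Each point is a list. The share is 2.59% to 2.62% in the OVCAR8 knockdown and SKOV3 control lists, and 1.66% to 1.90% in the SKOV3 knockdown and OVCAR8 control lists.

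For loss and gain, overlapping peaks of a strand were joined into regions, and a region had to be found in both lists of an ovarian group. A control region counted as lost if no knockdown peak of the line overlapped it by 1 base. Of the OVCAR8 control regions in pseudogenes, 211 of 418 (50.5%) were lost, where 57.8% of all OVCAR8 control regions were. Of the SKOV3 control regions 360 of 669 (53.8%) were lost, against 44.4% of all. In LOVO 257 of 677 (38%) were lost, against 37.8% of all, and in RKO 434 of 704 (61.6%), against 60.1% of all. The exact 95% binomial intervals, which cover counting error only and treat regions as independent, ran from 45.6% to 55.4% for OVCAR8 regions, 49.9% to 57.6% for SKOV3 regions, 34.3% to 41.7% for LOVO and 57.9% to 65.3% for RKO. The share over all regions lay inside the interval in LOVO and RKO, above it in OVCAR8 and below it in SKOV3. Against the knockdown lists of the other ovarian line, 43 of 418 OVCAR8 control regions (10.3%) were lost, with 14.6% of all, and 310 of 669 SKOV3 control regions (46.3%), with 44.3% of all.

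Gained regions, knockdown regions with no control peak, made up 136 of 350 (38.9%) in OVCAR8, against 25.9% of all regions. They were 114 of 417 (27.3%) in SKOV3, against 36.5% of all, 135 of 554 (24.4%) in LOVO, against 26.9%, and 449 of 726 (61.8%) in RKO, against 54.9%. Against the control of the other ovarian line, a comparison chosen after the data were seen, 6 of 350 regions of the libraries labelled OVCAR8 shMETTL3 were gained (1.71%, with 1.94% of all), and 43 of 417 of those labelled SKOV3 shMETTL3 (10.3%, with 8.81% of all). In RKO shMETTL3 the gained share was 75.9% of 245 regions in the biotype pseudogene and 54.7% of 481 in transcribed pseudogenes. Weak regions were lost more often than strong ones. In LOVO 58.3% of the 72 pseudogene regions in the weakest decile of the list were lost, and 4.35% of the 92 in the strongest decile. Over all LOVO regions these shares were 63.6% and 3.61%. In RKO they were 80.3% of 66 and 37.5% of 56, against 79.5% and 25.0% of all regions. In SKOV3 they were 80.6% of 67 and 30% of 80, against 61.3% and 20.7% of all, and in OVCAR8 64.4% of 59 and 18.9% of 37, against 79.4% and 22.3% of all. Had pseudogene regions been lost as often as all regions of the same decile, OVCAR8 would have lost 59.1%, SKOV3 43.8%, LOVO 35.9% and RKO 59.9%.

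**Figure D4:**
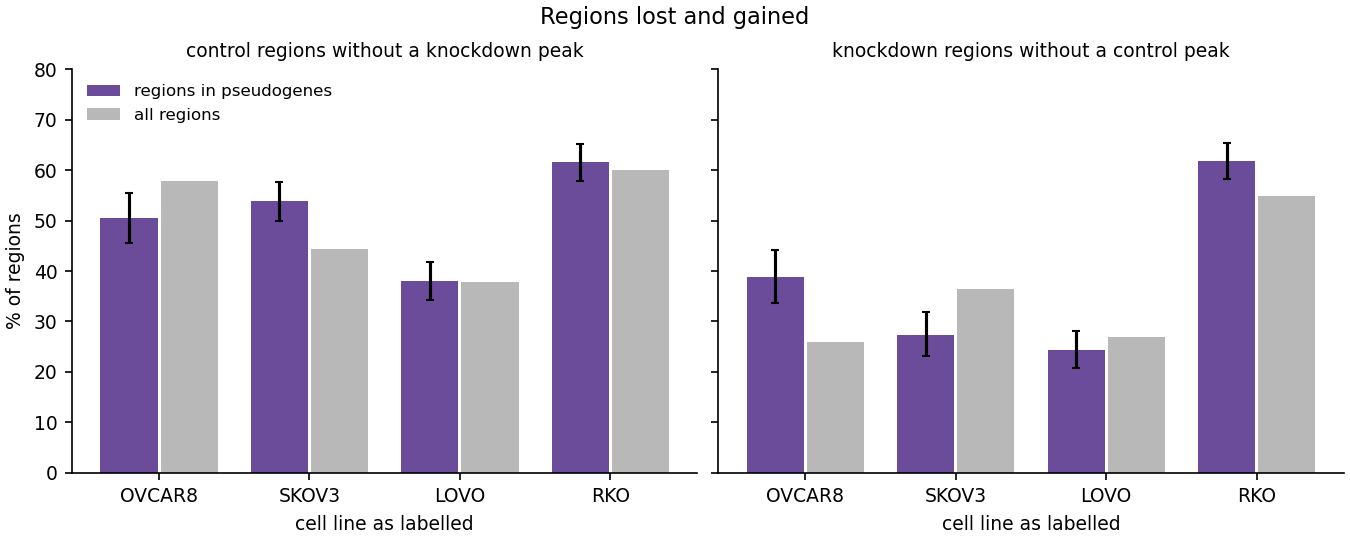
Percent of control regions with no knockdown peak (left panel) and of knockdown regions with no control peak (right panel), for regions in pseudogenes (left bar of each pair, with exact 95% binomial intervals) and all regions (right bar), by line. In OVCAR8 50.5% of the pseudogene regions were lost against 57.8% of all, and in SKOV3 53.8% against 44.4%.

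In OVCAR8 the pseudogenes that lost most regions were TEKT4P2, LOC100288637, CYP4F26P and HERC2P3, and those that gained most were ZNF252P, DUXAP8 and BMS1P22. TEKT4P2, a copy of a gene for tektin, a protein of cilia and flagella, lost 13 of 15 regions and had 3 and 3 peaks in OVCAR8 shMETTL3, against 16 and 18 in OVCAR8 control. CYP4F26P, a cytochrome P450 copy, lost 10 of 10. HERC2P3, a copy of the ubiquitin ligase gene HERC2, lost 8 of 9, with 1 and no peak in OVCAR8 shMETTL3, against 11 and 9 in OVCAR8 control. All 3 were present in the libraries labelled SKOV3 shMETTL3, with 13 and 10 peaks in TEKT4P2, 7 and 10 in CYP4F26P and 9 and 9 in HERC2P3. If every list was reduced to the same number of strongest peaks, TEKT4P2 lost 8 regions in OVCAR8, LOC100288637 3, CYP4F26P 2 and HERC2P3 6. ZNF252P gained 7 of 7 regions in OVCAR8. BMS1P22 lies within DUXAP8 on chromosome 22, so that its 5 and 5 peaks in OVCAR8 shMETTL3, against none in OVCAR8 control, are also peaks of DUXAP8.

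In SKOV3 the most regions were lost in LOC107985911 (13 of 15), PDE4DIPP2 (11 of 11), DUXAP9 (6 of 13) and PARGP1 (6 of 9). ZNF252P (6 of 6), SLC25A24P1 (6 of 8) and PARGP1-AGAP4, which shares the peaks of PARGP1, also lost 6, ties being broken by total peaks here and below. In lists of equal length the losses were 6 in LOC107985911, 6 in PDE4DIPP2, 3 in DUXAP9 and 1 in PARGP1. PDE4DIPP2, a copy of the gene of myomegalin, a protein of the centrosome and Golgi, had 2 and 1 peaks in SKOV3 shMETTL3 and 12 and 13 in SKOV3 control. PARGP1 derives from the gene of the glycohydrolase that removes poly(ADP-ribose). It had 3 and 3 peaks in SKOV3 shMETTL3 and 9 and 10 in SKOV3 control. The most regions were gained in TEKT4P2 (7 of 10), CYP4F26P (5 of 7) and LOC100288637 (4 of 9), all of which are among those with most loss in OVCAR8. RPL32P3, a ribosomal protein copy, also gained 4 (of 5). Lists of equal length gave gains of 5 in TEKT4P2, 1 in CYP4F26P and 2 in LOC100288637. As labelled, 130 of 795 pseudogenes (16.4%) had peak numbers that differed in opposite directions in OVCAR8 and SKOV3, with no overlap between groups in either line, and 9 in the same direction. Over all 19155 genes with a peak these shares were 23% and 1.63%. Taken line by line, 114 pseudogenes had fewer peaks in OVCAR8 shMETTL3 (14.3%, against 27.6% of all genes) and 83 more (10.4%, against 9.1%), and 200 had fewer in SKOV3 shMETTL3 (25.2%, against 21.1%) and 73 more (9.18%, against 17.6%). Of the 130, 59 had fewer peaks in OVCAR8 shMETTL3 and more in SKOV3 shMETTL3, and 71 the reverse.

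In LOVO the most regions were lost in TPTE2P5 (8 of 10), ZNF252P (8 of 11), LOC100132154 (8 of 13) and ZNF767P (6 of 12), the last tied with PARGP1 and PARGP1-AGAP4 (6 of 11) and CCDC162P (6 of 8). Lists of equal length gave losses of 4 in TPTE2P5, 2 in ZNF252P, 1 in LOC100132154 and 1 in ZNF767P. TPTE2P5, a copy of a gene of a membrane-bound phosphatase, had 2 peaks in LOVO shMETTL3 and 10 in LOVO control, and ZNF252P had 3 and 11. Gains were led by DTX2P1 (5 of 10), its read-through neighbour DTX2P1-UPK3BP1-PMS2P11 (5 of 9), with which it shares peaks, and GUSBP11 (5 of 9), tied with ZDHHC8BP (5 of 7). Among lists of equal length, DTX2P1 gained 2, DTX2P1-UPK3BP1-PMS2P11 2 and GUSBP11 none. GUSBP11 had 9 peaks in LOVO shMETTL3 and 5 in LOVO control. Fewer peaks in LOVO shMETTL3 than in LOVO control were seen in 146 pseudogenes (18.4%, against 29.6% of all genes with a peak), and more in 78 (9.81%, against 17.7%). A single list stands behind each of these counts.

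In RKO the most regions were lost in DUXAP8 (10 of 10), SIMC1P1 (10 of 11), PGM5P2 (10 of 11) and PARGP1 (9 of 11), the last tied with PARGP1-AGAP4 (9 of 11) and HERC2P3 (9 of 9). Losses in lists of equal length were 3 in DUXAP8, 5 in SIMC1P1, 1 in PGM5P2 and 1 in PARGP1. SIMC1P1, a copy of the gene of a SUMO-binding protein, had 2 peaks in RKO shMETTL3 and 11 in RKO control. PGM5P2, a copy of a phosphoglucomutase-like gene, had 3 and 11. FRG1HP (7 of 9), TEKT4P2 (6 of 9) and LOC100996643 (6 of 6) gained most, tied at 6 with CNTNAP3P2 and AQP7P1 (6 of 6 each) and PKD1P3 and PKD1P3-NPIPA1 (6 of 7 each). Gains in lists of equal length were 7 in FRG1HP, 2 in TEKT4P2 and 5 in LOC100996643. FRG1HP and PGM5P2 overlap on chromosome 9. Fewer peaks in RKO shMETTL3 were seen in 214 pseudogenes (26.9%, against 37.7% of all genes), and more in 275 (34.6%, against 30%). The list labelled RKO shMETTL3 is the one that shares least with the control of its line, and how many of these differences go with the list rather than with the knockdown cannot be told apart.

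Line specificity was read from the pattern of lists in which a pseudogene had a peak. Of the 795, 72 (9.06%) had a peak in all 12 lists, where 22.6% of all genes with a peak did. In lists of equal length 36 pseudogenes did, and the share over all genes was not determined there. A further 217 (27.3%) had a peak in exactly 1 list, against 17% of all genes. Most of these, 131 (16.5%, against 8.97% of all genes), were seen only in RKO shMETTL3, among them EGFEM1P, IGSF3P2 and LOC346329, whereas 39 (4.91%, against 3.49%) were seen only in RKO control. Only in both RKO lists were 24 (3.02%, against 1.84%), among them CCNYL4, PCDHB19P and PCDHB18P, the last pair being protocadherin copies. Only in both LOVO lists were 27 (3.4%, against 2.86%), among them NBPF7P and ZDHHC8BP. The 4 colorectal lists and no other shared 22 pseudogenes (2.77%, against 2.9%), among them PKD1P3 and ALOX12P2, and all 8 ovarian lists and no other shared 13 (1.64%, against 0.569%), among them SLC25A24P1 and ABCA17P. For these 2 sets, too, tissue and kind of list cannot be told apart.

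Within the ovarian lists the patterns followed the crossed pairing of labels. A set of 38 pseudogenes (4.78%, against 7.19% of all genes), among them LRP5L, CASTOR3P and FAM239A, had peaks in every list labelled SKOV3 shMETTL3 and every OVCAR8 control list, and none in the other 4 ovarian lists. Another 54 (6.79%, against 4.97%), among them ZNF252P, SIMC1P1 and LOC100132154, had peaks in every list labelled OVCAR8 shMETTL3 and every SKOV3 control list and none in the others. As labelled, 1 pseudogene (0.126%), RN7SKP203, was in every OVCAR8 list and no SKOV3 list. Another 4 (0.503%), BMS1P23, USP32P3, TNFRSF10B-AS1 and SDHAP2, were in every SKOV3 list and no OVCAR8 list. The share over all genes was not determined for these last patterns.

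**Figure D5:**
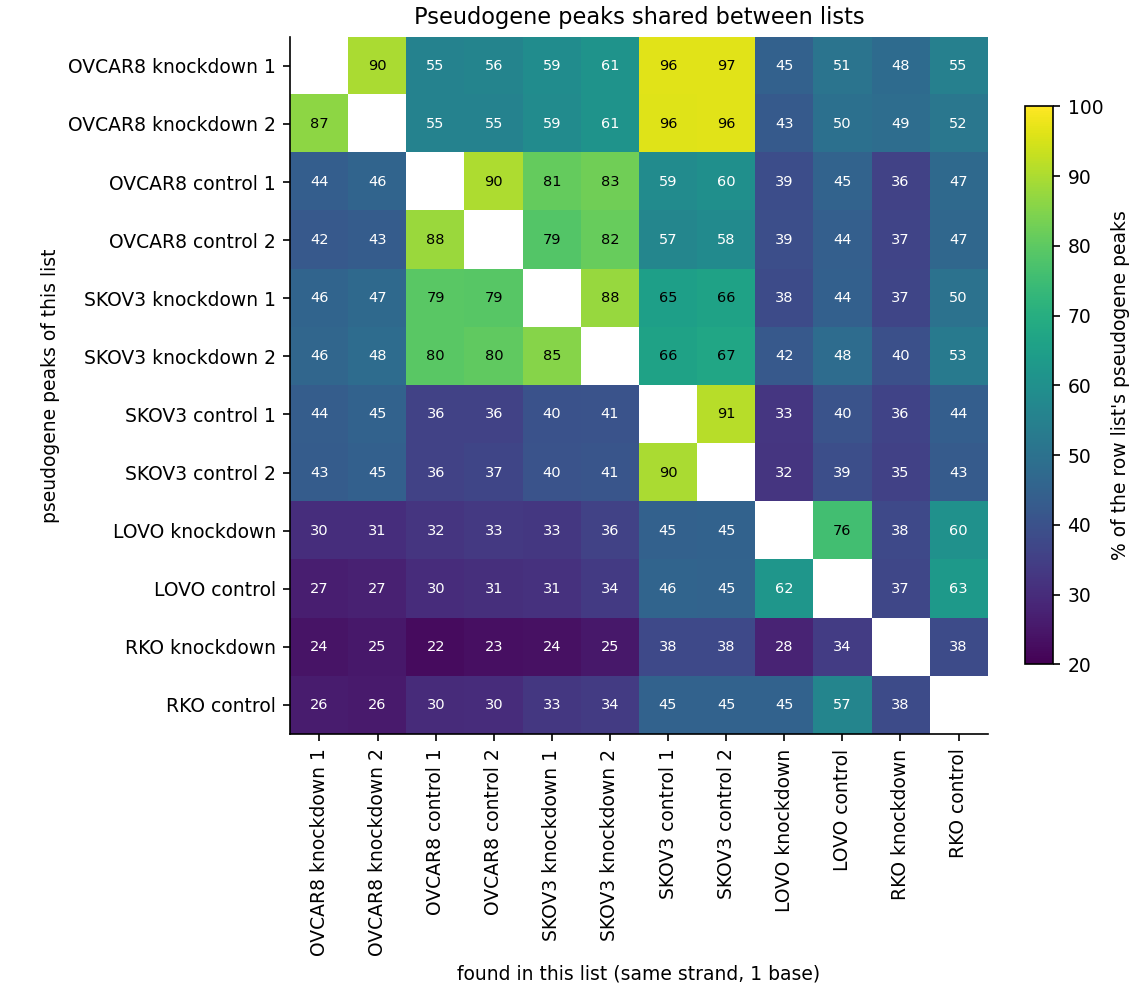
Percent of the pseudogene peaks of the row list that overlap a peak of the column list by 1 base on the same strand, for the 12 lists, knockdown above and left of control within a line. Replicate lists share 85.5% to 91.3%. Rows of OVCAR8 knockdown reach 96.1% to 96.5% in the SKOV3 control columns and 55.4% to 56.2% in the OVCAR8 control columns. For all peaks of these lists, not drawn, the shares are 95.6% to 96.2% and 69.0% to 69.5%.

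Reads that fit several places could put peaks in a pseudogene that belong to its parent. By symbol, 422 of the 795 pseudogenes (53.1%) have a protein-coding parent among the annotated genes. In a given list the parent also had a peak for 60.0% to 77.1% of the pseudogenes with one, for 47.4% to 64.3% of those of the 422 without one in that list, and for 29.0% to 48.0% of all protein-coding genes. Single pairs differed widely. SIMC1P1 and its parent SIMC1 both had no peak in SKOV3 shMETTL3, where SKOV3 control had 9 and 5 in the pseudogene and 9 and 11 in the parent. In RKO shMETTL3 the pseudogene had 2 and the parent none, and in RKO control each had 11. HERC2P3 had no peak in LOVO shMETTL3 or LOVO control, where HERC2 had 10 and 10. DUXAP8 had up to 13 peaks in a list and TEKT4P2 up to 18, while DUXA, a double homeobox gene of the early embryo, and TEKT4 had none in any list. Some of the DUXAP8 peaks lay in BMS1P22, a copy of BMS1, and BMS1 had a peak in every list.

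Peak numbers of copies of a parent differed within some lists and went together in others. Positions within the copies were not compared. Of the 3 copies of HERC2 with a peak, HERC2P2 had 5 peaks in LOVO shMETTL3 and 6 in LOVO control, where HERC2P3 had none, while in RKO neither had a peak in RKO shMETTL3 and HERC2P3 had 9 and HERC2P2 2 in RKO control. The 3 copies of DUXA, DUXAP4, DUXAP8 and DUXAP9, had 186 peaks in all. DUXAP8 had none and DUXAP9 had 1 in RKO shMETTL3, against 10 in DUXAP8 and 7 in DUXAP9 in RKO control. The 9 copies of GUSB, the gene of beta-glucuronidase, had 154 peaks, and GUSB itself had none in any ovarian list. GUSBP1 and GUSBP11 had a peak in all 12 lists, while GUSBP15, GUSBP17 and GUSBP3 had peaks in SKOV3 control alone. GUSBP14 and GUSBP16 went together in the ovarian lists. GUSBP14 had 2 and 2 peaks in OVCAR8 shMETTL3, none in OVCAR8 control, 4 and 5 in SKOV3 shMETTL3 and 8 and 8 in SKOV3 control. For GUSBP16 these were 2 and 1, none, 3 and 2, and 8 and 7. The 8 copies of BMS1, a factor of ribosome assembly, had 131 peaks, and BMS1P1 and BMS1P4 had a peak in all 12 lists. BMS1P18 lies within DUXAP9 and BMS1P22 within DUXAP8, so their 11 and 31 peaks also count among the 186 of the DUXA copies.

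Identical sequence at 2 places should give like peaks if reads were placed at both. In the ovarian lists, where the summit is given, pairs of peaks in different places were called alike if widths and summit positions were within 3 bases and folds within 10%. An alike partner in at least 2 of the same lists was found for 72 of 899 pseudogene regions (8.01%) and 3729 of 39653 other regions (9.40%). In at least 3 lists it was found for 0 of 607 pseudogene regions and 55 of 27582 others. Between copies of a shared parent, alike pairs numbered 0 to 2 in each list, the highest share being 2 of 347 pairs in RKO shMETTL3 (0.576%), where the summit is not given and 0.325% of other pairs were alike. With summits, it was 1 of 327 in the second SKOV3 shMETTL3 list (0.306%, against 0.0352% of other pairs), and 1 of 888 (0.113%, against 0.0309%) and 2 of 909 (0.22%, against 0.0216%) in the SKOV3 control lists. No copy pair was alike in the other 5 ovarian lists, where 0.0266% to 0.0377% of other pairs were. These shares rest on 1 or 2 pairs and were not tested. SMG1P1 with SMG1P3, SLC25A24P1 with SLC25A24P2 and PI4KAP1 with PI4KAP2 were such pairs, each in 1 list. This measure misses some true repeats. The start windows of SLX1A-SULT1A3 and SLX1B-SULT1A4 on chromosome 16, which are not pseudogenes, are identical in every 100-base run, and both had peaks in all 8 ovarian lists, at folds of 8.04 to 12 and 6.77 to 10.8, yet their widths and folds were alike in 2 of the 8. At 2 lists this known repeat falls short of the requirement of at least 3, so the 0 of 607 does not decide how reads were placed. In the 4 LOVO and RKO lists only SLX1A-SULT1A3 had a peak.

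Windows at gene starts whose every 100-base run was repeated in the table held the midpoint of a peak in 4 of 204 cases (1.96%), against 1855 of 34007 windows (5.45%) with no repeated run. The genes of these windows also differ in other ways, and the part of read placement in this was not tested. Strand is a further reading. Pseudogene peaks overlapped a peak on the other strand in 0.404% to 4.47% of cases in a list, and all peaks in 1.54% to 6.09%. The pseudogene share was above that of all peaks in OVCAR8 control (4.47% and 3.45%, against 2.46% and 2.53%). It was also above it in the second OVCAR8 shMETTL3 list (1.96% against 1.70%), and below it in every other list. In the OVCAR8 control lists 21 and 17 pseudogene peaks had such an overlap. Most of these lay in CDC27P9, CDC27P10 and CDC27P11, beside the ribosomal genes of chromosome 21. The share without that locus was not computed.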

How the data were processed

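MeRIP peak lists of 4 cell lines were analysed, as described above. Input libraries and reads were not used here. For OVCAR8 and SKOV3 the authors deposited 1 list per MeRIP library with a fold enrichment (a linear ratio) and with p-value and q-value on a −log10 scale, the q-values never under 2.00. The colorectal lists, deposited for each group, carry a score of at least 3 whose meaning no header explains. The submitters' processing notes name MACS2 2.2.7.1, HISAT2 2.1.0, Bowtie2 2.4.2, Trim Galore 0.6.6 and the build hg38, without role or order. The sources used here give neither the handling of reads that fit several places nor how replicate 2 entered the LOVO and RKO lists. Values of peaks are the authors' own and were ranked and filtered only within a list, and the few folds set side by side across lists were not tested. Read depth is unknown, so peak numbers per list are given in its place.

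Gene bodies came from the RefSeq table of GRCh38.p14, which gives no strand or exons. Peaks were joined to genes by an overlap of 1 base, with Python 3.11.15 scripts tested on simulated data. Numbers and shares per list were compared by permuting labels exactly within lines (two-sided), numbers as log2(number + 1). Parents were assigned by symbol. The members, gene families and named genes were chosen with earlier results of these data known. Named were the 10 pseudogenes with most peaks by the mean over lines, per line those with most lost (4) and most gained (3) regions whose peak numbers did not overlap between groups, the 6 in most lists, the strongest of each list and the copies of the 4 parents with most peaks. Others are said to be chosen after their values were seen. Alternatives covered the member rule, peak thresholds, overlap, strand, lists left out and the replicate block. DPY19L2P2 is not reported here. No read-level check of pairing was possible. Same-numbered lists share only a number in the labels.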

Additional observations from a re-analysis of the deposited data

Results flagged for a closer look

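The change in the share of peaks that lie in pseudogenes differed between the ovarian lines as labelled. It was 1.64 percentage points higher for OVCAR8 than for SKOV3 (shMETTL3 minus control in each), because every OVCAR8 shMETTL3 list had a higher share than every OVCAR8 control list and every SKOV3 shMETTL3 list a lower share than every SKOV3 control list. A two-sided exact permutation test of the difference gave p = 0.0556 (0.0833 adjusted over the 3 permutation tests made), the smallest that 36 arrangements allow.

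Peak numbers of 130 pseudogenes differed in opposite directions in OVCAR8 and SKOV3, with no overlap between knockdown and control lists in either line. They are 16.4% of the pseudogenes with a peak, where 23% of all genes with a peak did so, and this difference was not tested gene by gene. The lists labelled as knockdown of one ovarian line share most pseudogene peaks with the control of the other line, and what part this has in both results was not tested.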

How the results depend on the processing

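The change in peak number kept its direction under every setting tried but 1: with an equal number of strongest peaks per list it was 0.019 (log2, exact p = 0.889). By the same exact permutation test, before correction, it missed the threshold without the LOVO lists (-0.27, p = 0.0556), with OVCAR8 and SKOV3 only (-0.43, p = 0.0556, the smallest possible), with the ovarian lists permuted across lines (-0.28, p = 0.0857) and with the replicate block, in which labels were permuted within same-numbered lists (-0.28, p = 0.0625, smallest possible 0.03125). Leaving out replicates gave -0.28 to -0.27 (-0.284 to -0.267), and without both lists of replicate 1 or replicate 2 the smallest possible p is 0.125. The change in share kept its direction and stayed short of the threshold in every setting, the replicate block included.

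The percent of control regions lost was higher if 50% of a region had to be covered (59.8% in OVCAR8, with 66.4% of all regions, 65.3% in SKOV3, with 52.4%, 43.6% in LOVO, with 45.4%, and 72.3% in RKO, with 67.9%). With an equal number of peaks per list it was 39.2% in OVCAR8 (44.5% of all), 51.5% in SKOV3 (42.8%), 42.7% in LOVO (40.0%) and 68.4% in RKO (60.2%). Regions of any control list gave 55.6% in OVCAR8 (63.7% of all) and 58.2% in SKOV3 (48.6%). Absence from 1 knockdown list gave 55.7% (63.5%) and 60.1% (50.4%). Against the knockdown lists of the other ovarian line it was 10.3% in OVCAR8 (14.6% of all) and 46.3% in SKOV3 (44.3%). The percent of knockdown regions gained over the control of the other line, chosen after the data were seen, was 1.71% for OVCAR8 (1.94% of all) and 10.3% for SKOV3 (8.81%). Leaving out a list gave losses of 52.2% to 54.4% in OVCAR8 (60.3% to 61.4% of all) and 56.0% to 57.4% in SKOV3 (46.7% to 48.0%). Pseudogenes with a peak in all 12 lists numbered 36 with an equal number of peaks, a setting without a share over all genes. With an equal number of peaks, 21 of 28 counts of lost or gained regions in named pseudogenes moved, and GUSBP11 kept none of its gained regions in LOVO. The causes were not tested. The comparison of peaks with the strand of the gene was not run, since the gene table used here gives no strand.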
